A study of Mus musculus with 6 samples.

Results

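The transcripts of 42 genes of blood vessels were compared between cochlear and vestibular sensory epithelia of newborn mice. The genes were chosen by name, with earlier results of these data known. They comprise 23 endothelial markers, 14 angiogenic ligands and receptors and 5 pericyte markers, out of 18194 genes that the arrays read with at least 1 probe set of their own, and each gene is described by its brightest probe set, the one with the highest mean over all 6 arrays. Most endothelial markers were higher in the vestibule, Abcb1a by the widest margin, and so was the VEGF receptor gene Kdr, while the angiogenic ligands divided between the tissues and the pericyte markers showed no common direction.

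The samples were 3 arrays of cochlea and 3 of vestibule, all from C3H mice of wild type genotype at postnatal day 2. A pool held sensory epithelia of 10 to 12 inner ears, the vestibular ones being those of utricle, saccule and the cristae of the lateral and anterior canals. Epithelia were taken with the mesenchyme below them and with attached neurons, so vessels of the underlying tissue were part of each pool. The labels describe 3 pools of each tissue as biological replicates, without saying whether ears of the same animals entered pools of both tissues. The methods also mention replicates within each experiment, so the spread behind each p-value may be technical in part. In bulk samples such as these, fewer cells of a type and less RNA per cell cannot be told apart.

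Endothelial cells line every blood vessel and are joined by the adhesion molecules VE-cadherin and claudin 5. Their growth is driven by vascular endothelial growth factor (VEGF) ligands that act on the receptor tyrosine kinases encoded by Kdr, Flt1 and Flt4, and vessels are stabilised by angiopoietins acting on the receptor encoded by Tek. Pericytes wrap the capillary wall and are recruited by platelet-derived growth factor B from the endothelium, which acts on the receptor encoded by Pdgfrb. In the inner ear, capillaries supply the lateral wall and the tissue under the sensory patches and form a blood-labyrinth barrier.

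Expression values are log2 levels, as computed by the authors with robust multiarray averaging (RMA) and quantile normalization. Each difference is the vestibular mean less the cochlear mean on that scale and is negative where the cochlea was higher. Genes are called at a Benjamini-Hochberg adjusted p under 0.1 in limma and a fold of at least 1.3, the thresholds of the study. Of the 42 members 41 passed the filter on low values, and the remaining gene, Pecam1, is given below without a test. Sox7 and Vwf passed although their cochlear mean lay under the lowest mean that the filter kept (4.68), so they passed through their vestibular levels and had to differ.

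Sequences upstream of 24 of the 42 members were held in the RefSeq table used here (build GRCm38.p6), and the 250 bases before the annotated start of 4 of them are shown, because these genes mark the range of the differences. Kdr and Abcb1a had the widest differences towards the vestibule, Tie1 encodes a receptor of the endothelial surface that was higher there by a smaller margin, and Emcn was the endothelial marker that was higher in the cochlea. Capitals mark AGGAAG, or its reverse complement CTTCCT, a short core bound by ETS factors, the family of Erg, Fli1 and Ets1. The stretches lie at chr5:75978456-75978705 on the minus strand for Kdr, chr5:8566841-8567090 on the plus strand for Abcb1a, chr4:118489850-118490099 on the minus strand for Tie1 and chr3:137340828-137341077 on the plus strand for Emcn.
Kdr: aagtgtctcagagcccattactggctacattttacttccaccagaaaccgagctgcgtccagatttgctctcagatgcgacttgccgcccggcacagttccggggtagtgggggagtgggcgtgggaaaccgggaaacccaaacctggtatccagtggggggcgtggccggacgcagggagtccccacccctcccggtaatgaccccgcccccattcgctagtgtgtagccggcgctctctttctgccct
Abcb1a: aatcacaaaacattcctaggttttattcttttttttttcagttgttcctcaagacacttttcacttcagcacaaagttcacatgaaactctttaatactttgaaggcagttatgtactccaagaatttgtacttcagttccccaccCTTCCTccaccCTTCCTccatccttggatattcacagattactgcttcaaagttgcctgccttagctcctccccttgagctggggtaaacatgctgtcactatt
Tie1: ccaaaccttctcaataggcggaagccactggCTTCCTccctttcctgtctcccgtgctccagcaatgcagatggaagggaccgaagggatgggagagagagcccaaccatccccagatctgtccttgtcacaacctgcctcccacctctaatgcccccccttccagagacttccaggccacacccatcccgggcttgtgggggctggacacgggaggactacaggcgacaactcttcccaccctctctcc
Emcn: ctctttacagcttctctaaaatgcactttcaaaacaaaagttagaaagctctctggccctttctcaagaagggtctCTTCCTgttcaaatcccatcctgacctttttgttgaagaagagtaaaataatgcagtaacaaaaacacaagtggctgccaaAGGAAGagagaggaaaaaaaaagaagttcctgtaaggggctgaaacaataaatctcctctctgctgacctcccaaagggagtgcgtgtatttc

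Kdr held no match in its stretch, and its bases were 61.6% G or C. Abcb1a held 2 matches, which begin 104 and 93 bases before its start, at 40.4% G or C. Tie1 held 1 match, 219 bases before its start, and Emcn 2, at 174 and 93 bases. Genes that were higher in opposite tissues therefore both carried these letters. Among the 24 members with a sequence, 10 (41.7%) held the motif on either strand, against 29.2% of the first listed starts of 27025 genes. The SOX core ACAAAG was found in 3 members (12.5%, against 16.5% of all genes) and the hypoxia response core ACGTG in 1 (4.17%, against 16.6%). These matches describe letters in a window and were not tested as binding sites.

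Among the endothelial markers, 18 of the 22 tested were called higher in the vestibule against 1 in the cochlea, while 3 did not pass. The 18 include Sox7 and Vwf, which had to differ because they passed the filter through their vestibular levels. Over all 14182 genes tested, 15.1% were called higher in the vestibule against 7.97% in the cochlea. The median difference of the markers was 0.87, against 0.03 over all genes. In 18 of the 22 markers every vestibular array lay above every cochlear array, which was the case for 19.9% of all genes, and the opposite order, found for 12.4% of all genes, was found for 1 marker. The plot of endothelial levels by array shows these gaps gene by gene.

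**Figure D1:**
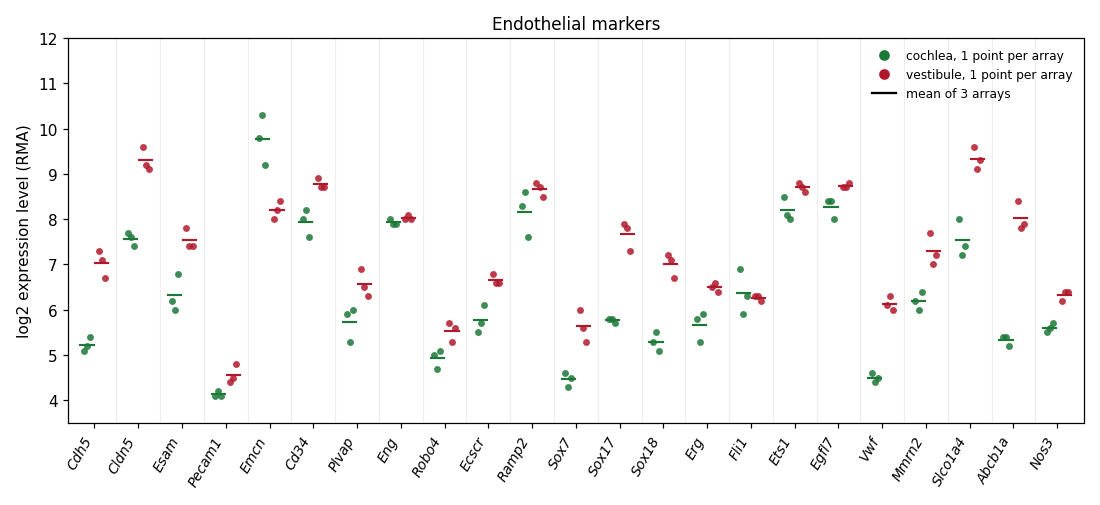
Log2 expression level (RMA) of the 23 endothelial markers, drawn as points, 3 for the cochlea (green) and 3 for the vestibule (red), and bars at the means. The points of Cdh5, Cldn5, Sox17, Sox18, Vwf, Slco1a4 and Abcb1a lie wide apart with the vestibule above, those of Emcn lie apart with the cochlea above, and those of Eng, Ramp2 and Fli1 overlap.

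The junction genes moved together. Cdh5, which encodes VE-cadherin, read 5.1, 5.2 and 5.4 on the cochlear arrays and 7.3, 7.1 and 6.7 on the vestibular arrays. Its difference was 1.80 (standard error, SE, 0.17, limma adjusted p = 0.000141), a 3.48-fold higher level in the vestibule. Cldn5, which encodes the tight junction protein claudin 5, read 7.7, 7.6 and 7.4 in the cochlea and 9.6, 9.2 and 9.1 in the vestibule. The tissues were separated by 1.4 between the nearest arrays of Cldn5, at a difference of 1.73 (SE 0.16, limma adjusted p = 0.00012). Esam, an adhesion molecule of endothelial tight junctions, stood at 1.20 (SE 0.21, limma adjusted p = 0.00496), with cochlear arrays from 6.0 to 6.8 and vestibular arrays from 7.4 to 7.8. Pecam1, the classical adhesion molecule of endothelium, was read by 1 probe set at 4.1 to 4.2 on cochlear and 4.4 to 4.8 on vestibular arrays, under the filter, and gives only a dim signal in both tissues.

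The transcripts of surface proteins showed smaller gaps and included the exception. Cd34, a sialomucin of endothelial and progenitor cells, stood at 0.83 (SE 0.16), and Plvap, which forms the diaphragms of fenestrated capillaries, at 0.83 (SE 0.22, limma adjusted p = 0.031). The call of Plvap was lost without vestibule replicate 1, where it stood at 0.67, and without vestibule replicate 2, where it stood at 0.87. Robo4, a guidance receptor that stabilises vessels, stood at 0.60 and lost its call without vestibule replicate 1 (0.52) or 3 (0.57). Ecscr, a surface protein of endothelial motility, stood at 0.90 (SE 0.16, limma adjusted p = 0.0056).

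Emcn, which encodes the sialomucin endomucin of venous and capillary endothelium, ran the other way. It read 9.8, 10.3 and 9.2 in the cochlea and 8.0, 8.2 and 8.4 in the vestibule, so that the dimmest cochlear array exceeded the brightest vestibular array by 0.8. The difference was -1.57 (SE 0.25, 95% confidence interval -2.14 to -0.99, limma adjusted p = 0.00292), a 2.96-fold higher level in the cochlea. Emcn kept this call under each of 19 alternatives, and it was read by 1 probe set, so no second reading was at hand. The gap between Emcn and Cldn5 on the same array was lower in the vestibule by 3.30 on the log2 scale (SE 0.37), with no overlap between the tissues (exact permutation test, two-sided p = 0.1, the smallest that 3 arrays against 3 allow). Each of these genes already lay apart between the tissues, in opposite directions. Their gaps could therefore not overlap, and the pair adds nothing to the single genes.

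Eng, Ramp2 and Fli1 did not pass the test. Eng, which encodes the TGF-beta co-receptor endoglin, read 7.9 to 8.0 on cochlear and 8.0 to 8.1 on vestibular arrays, differing by 0.10 with a 95% confidence interval of -0.14 to 0.34. Ramp2, which lets the calcitonin receptor-like receptor respond to adrenomedullin, read 8.3, 8.6 and 7.6 in the cochlea and 8.8, 8.7 and 8.5 in the vestibule, and cochlea replicate 3 was its lowest array. The interval for Ramp2, -0.03 to 1.03, was therefore wide. Ramp2 was called without cochlea replicate 2, at 0.72, and stood at 0.22 without cochlea replicate 3. A second probe set of Eng gave 0.30 and one of Fli1 -0.50, neither of them called.

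The SOXF factors, which act together in arterial and lymphatic differentiation, were higher in the vestibule in all 3 cases. Sox17 read 5.8, 5.8 and 5.7 in the cochlea and 7.9, 7.8 and 7.3 in the vestibule, differing by 1.90 (SE 0.16, limma adjusted p = 9.08e-05). That probe set is of a class that can pick up other transcripts, and the second probe set of Sox17 gave 1.3 and was also called. Sox18 read 5.3, 5.5 and 5.1 against 7.2, 7.1 and 6.7, a difference of 1.70 (SE 0.16, limma adjusted p = 0.000177). Sox7 stood at 1.17 (SE 0.18, limma adjusted p = 0.00244), from a cochlear mean of 4.47 near the floor of the arrays. It passed the filter through its vestibular level and so had to differ. No cochlear array reached any vestibular array in these 3 genes.

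The ETS factors were divided. Erg, an ETS factor that maintains endothelial identity, stood at 0.83 (SE 0.17, limma adjusted p = 0.00906), with cochlear arrays at 5.8, 5.3 and 5.9 and vestibular arrays at 6.5, 6.6 and 6.4. Fli1, its close relative, which blood cells also express, read 6.9, 5.9 and 6.3 in the cochlea and 6.3, 6.3 and 6.2 in the vestibule, with a difference of -0.10 and an interval of -0.61 to 0.41. The cochlear arrays of Fli1 spanned the vestibular ones. Relative to Fli1, Erg was higher in the vestibule by 0.93 (SE 0.21, exact permutation test, two-sided p = 0.1). Ets1, which is also active in mesenchyme and lymphocytes, stood at 0.50 (SE 0.15, limma adjusted p = 0.0556), with 0.1 between the nearest arrays of the tissues. Leaving out any array but cochlea replicate 1 lost the call of Ets1, at values from 0.40 to 0.55, and a second probe set of the gene was called at 0.90 while both others did not pass.

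Transcripts of secreted and matrix proteins of the vessel wall were higher in the vestibule, as was that of the enzyme gene Nos3. Vwf, which encodes the clotting factor carried by endothelium and platelets, read 4.6, 4.4 and 4.5 in the cochlea and 6.1, 6.3 and 6.0 in the vestibule, differing by 1.63 (SE 0.12, limma adjusted p = 4.57e-05). Having passed the filter through its vestibular level, Vwf had to differ. Mmrn2, a multimerin of the endothelial matrix, stood at 1.10 (SE 0.19, limma adjusted p = 0.00446). Of its other tested probe sets, that at 0.87 was called and that at 0.33 was not. Egfl7, a secreted factor of endothelium whose gene hosts a microRNA, stood at 0.47 (SE 0.14, limma adjusted p = 0.052). Its 3 dimmer probe sets gave 0.37 to 0.57, that at 0.37 without a call. The call of Egfl7 was lost without cochlea replicate 3 (0.33) and without any of the vestibular arrays (0.43 to 0.48). Nos3, which encodes the endothelial nitric oxide synthase, read 5.5 to 5.7 on cochlear and 6.2 to 6.4 on vestibular arrays, differing by 0.73 (SE 0.12, limma adjusted p = 0.00289).

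The transporters of barrier endothelium included Abcb1a, the marker with the widest difference of the class. Abcb1a encodes the efflux pump P-glycoprotein, which keeps drugs out of brain and inner ear. It read 5.4, 5.4 and 5.2 in the cochlea and 8.4, 7.8 and 7.9 in the vestibule, so that 2.4 lay between the nearest arrays. The difference was 2.70 (SE 0.17, limma adjusted p = 1.59e-05), a 6.5-fold higher level, and the second probe set gave 1.87. That probe set passed the filter through its vestibular level alone, with a cochlear mean of 3.87, and so had to differ. Slco1a4, which encodes an organic anion transporter of the blood-brain barrier, read 8.0, 7.2 and 7.4 in the cochlea and 9.6, 9.1 and 9.3 in the vestibule. Its difference was 1.80 (SE 0.22, limma adjusted p = 0.00058), 3.48-fold. Neither gene is confined to endothelium in every tissue, and the cell of origin was not measured here.

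Of the 14 angiogenic ligands and receptors, all tested, 4 were called higher in the vestibule against 3 in the cochlea, and 7 did not pass. Set against the 15.1% and 7.97% of all genes, both shares were larger, but the numbers are small and the median difference was 0.10. All vestibular arrays lay above all cochlear arrays for 6 of the 14 genes, beside 19.9% of all genes. The opposite held for 3, beside 12.4% of all genes.

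Receptors of VEGF differed sharply from each other. Kdr, which encodes VEGF receptor 2, the main signalling receptor of growing endothelium, read 7.2, 7.1 and 6.9 in the cochlea and 10.2, 9.9 and 10.0 in the vestibule. The nearest arrays were 2.7 apart. With a difference of 2.97 (SE 0.13, 95% confidence interval 2.67 to 3.27, limma adjusted p = 2.79e-06) the level was 7.82-fold higher in the vestibule, the widest difference among the 41 tested members. Flt1, which encodes VEGF receptor 1, a receptor that largely sequesters ligand, read 6.3, 5.7 and 5.8 in the cochlea and 6.1, 5.9 and 5.9 in the vestibule. Its difference was 0.03, with an interval of -0.35 to 0.42, and its second tested probe set gave 0.40 (limma adjusted p = 0.114). Flt4, which encodes the VEGF-C receptor of lymphatic and sprouting endothelium, stood at -0.03 (interval -0.34 to 0.28), while its dimmer probe set was called at 0.43 (limma adjusted p = 0.0761). The probe sets of Flt4 thus gave different answers.

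The difference of Kdr was wider than those of Flt1 and Cdh5. On the same arrays the gap between Kdr and Flt1 was wider in the vestibule by 2.93 (SE 0.15) and that between Kdr and Cdh5 by 1.17 (SE 0.23), with no overlap between tissues in either (exact permutation test, two-sided p = 0.1 each). Over the 6 arrays Flt1 ranged from 5.7 to 6.3 and Cdh5 from 5.1 to 7.3, less than the 2.7 between the nearest arrays of Kdr. The lack of overlap was therefore fixed in advance by the single genes. Such gaps were computed for 8 pairs, picked with their values already known, and the exact permutation p was 0.1 for each, before and after adjustment, so that none can pass a threshold of 0.05 in this design. The response of single probe sets to their transcript can also differ.

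The VEGF ligands were less even. Vegfa, the ligand of Kdr and Flt1 that is induced by hypoxia, read 7.6, 7.6 and 7.3 in the cochlea and 7.9, 7.7 and 8.0 in the vestibule. Its difference of 0.37 (SE 0.14, limma adjusted p = 0.114) did not pass, although the tissues did not overlap, and its other probe set gave 0.07. Vegfb, a ligand of Flt1, stood at 0.17 (interval -0.14 to 0.48) and did not pass. Vegfc, the ligand of Flt4 and a lymphatic growth factor, read 6.9, 7.0 and 6.6 in the cochlea and 7.9, 7.8 and 7.7 in the vestibule, differing by 0.97 (SE 0.14, limma adjusted p = 0.00139). A second probe set of Vegfc was called at 0.90, and the third gave 0.47 and was not called.

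Pgf, which encodes placental growth factor, a ligand of Flt1 alone among the VEGF receptors, ran towards the cochlea. It read 6.1, 6.2 and 6.6 there and 5.5, 5.5 and 5.7 in the vestibule, differing by -0.73 (SE 0.15, limma adjusted p = 0.0111). The gap between Vegfc and Pgf was wider in the vestibule by 1.70 (SE 0.29), which follows from their opposite differences.

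The angiopoietins showed opposite differences. Angpt2, the context-dependent ligand that endothelium releases during remodelling, read 5.8, 6.0 and 6.5 in the cochlea and 7.0, 6.8 and 7.1 in the vestibule, differing by 0.87 (SE 0.18, limma adjusted p = 0.0124). Angpt1, the stabilising ligand made by mural and mesenchymal cells, read 7.6 on all 3 cochlear arrays and 7.0, 7.1 and 7.2 in the vestibule, differing by -0.50 (SE 0.11, limma adjusted p = 0.0137). No array of either gene crossed over to the other tissue. Taking both ligands on the same array, Angpt2 gained 1.37 over Angpt1 in the vestibule (SE 0.23, exact permutation test, two-sided p = 0.1). With both genes apart in opposite directions, that outcome was fixed in advance.

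Of the receptors of this system, Tek read 8.0, 8.0 and 7.7 in the cochlea and 8.0, 7.7 and 8.1 in the vestibule. Its difference was 0.03, with an interval of -0.30 to 0.37. Tie1, the orphan receptor that pairs with the Tek product, read 4.9, 5.0 and 4.5 against 5.6, 5.7 and 5.4, a difference of 0.77 (SE 0.16, limma adjusted p = 0.0104). Set against Tek on each array, Tie1 was higher in the vestibule by 0.73 (SE 0.21, exact permutation test, two-sided p = 0.1).

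The Notch genes of endothelium did not pass. Dll4, the ligand of tip cells, stood at 0.03 (interval -0.28 to 0.34), with both tissues between 5.2 and 5.6. Notch4, an endothelial receptor, stood at 0.33 (SE 0.13, limma adjusted p = 0.119) with arrays apart by 0.1, and was called without cochlea replicate 2 at 0.42. Pdgfb, the endothelial ligand that recruits pericytes, was higher in the cochlea. It read 7.1, 7.2 and 7.1 in the cochlea and 6.6, 6.8 and 6.4 in the vestibule, differing by -0.53 (SE 0.13, limma adjusted p = 0.0234). Without vestibule replicate 1 the call of Pdgfb was lost, and its dimmer probe set gave -0.23 without a call.

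**Figure D2:**
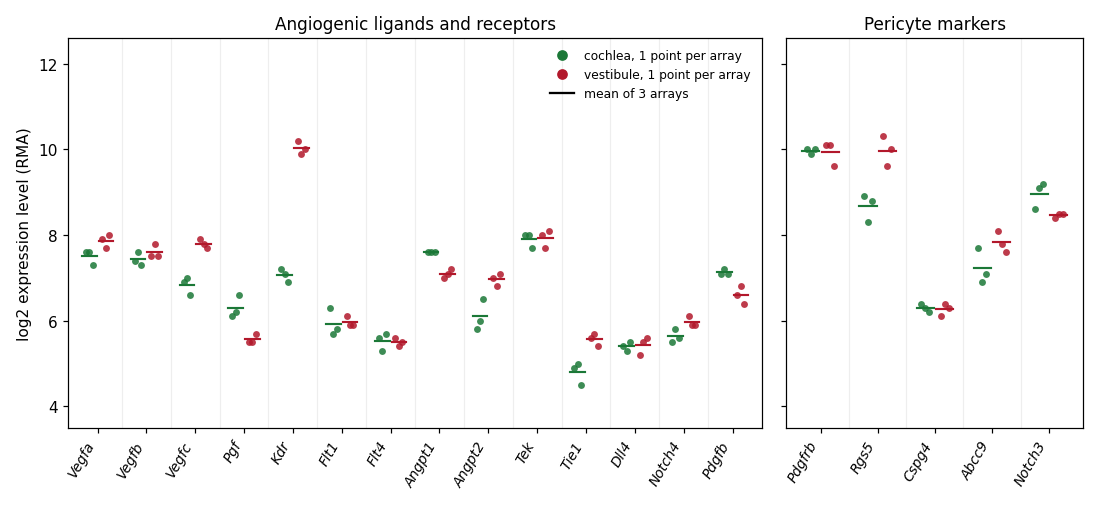
Log2 expression level (RMA) of the 14 angiogenic ligands and receptors (left) and the 5 pericyte markers (right), with 1 point per array of cochlea (green) and vestibule (red) and bars at the means of 3 arrays. Kdr stands apart by 2.7 between its nearest arrays, Vegfc, Angpt2, Tie1 and Rgs5 lie higher in the vestibule, and Pgf, Angpt1, Pdgfb and Notch3 lie higher in the cochlea.

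Among the 5 pericyte markers 1 was called higher in the vestibule against 1 in the cochlea, beside 15.1% and 7.97% of all genes, and the median difference was -0.03. Rgs5, a regulator of G protein signalling and a common marker of pericytes, read 8.9, 8.3 and 8.8 in the cochlea and 10.3, 9.6 and 10.0 in the vestibule, differing by 1.3 (SE 0.21, limma adjusted p = 0.00322). Of its other 3 probe sets, that at 1.20 was called and that at -0.20 was not. The remaining was called at 0.77, but it passed the filter through its vestibular level alone, with a cochlear mean of 4.5, and so had to differ. Pdgfrb, the receptor that Pdgfb acts on, read 9.9 to 10.0 on cochlear and 9.6 to 10.1 on vestibular arrays, a difference near 0 of -0.03 (interval -0.38 to 0.32).

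On each array Rgs5 gained 1.33 over Pdgfrb in the vestibule (SE 0.31, exact permutation test, two-sided p = 0.1). The nearest arrays of Rgs5 lay 0.7 apart, more than the range of Pdgfrb over the 6 arrays (9.6 to 10.1), so these gaps could not overlap. Pdgfrb is also active in mesenchymal cells, which both dissections held. Cspg4, which encodes the NG2 proteoglycan of pericytes and glial progenitors, stood at -0.03 (interval -0.32 to 0.25) at its brightest probe set, and its other was called at 0.50 (limma adjusted p = 0.0786).

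Abcc9, the regulatory subunit of the potassium channel of capillary pericytes, read 7.7, 6.9 and 7.1 in the cochlea and 8.1, 7.8 and 7.6 in the vestibule. Its difference of 0.60 (SE 0.22, limma adjusted p = 0.105) lay just beyond the threshold, and cochlea replicate 1 overlapped the vestibule. Without that array the difference was 0.83 and was called, and the second probe set was called at 1.03. Notch3, the receptor that mural cells need to mature, read 8.6, 9.1 and 9.2 in the cochlea and 8.4, 8.5 and 8.5 in the vestibule, differing by -0.50 (SE 0.16, limma adjusted p = 0.0762). That call was lost without any array other than cochlea replicate 1, at values from -0.52 to -0.38.

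**Figure D3:**
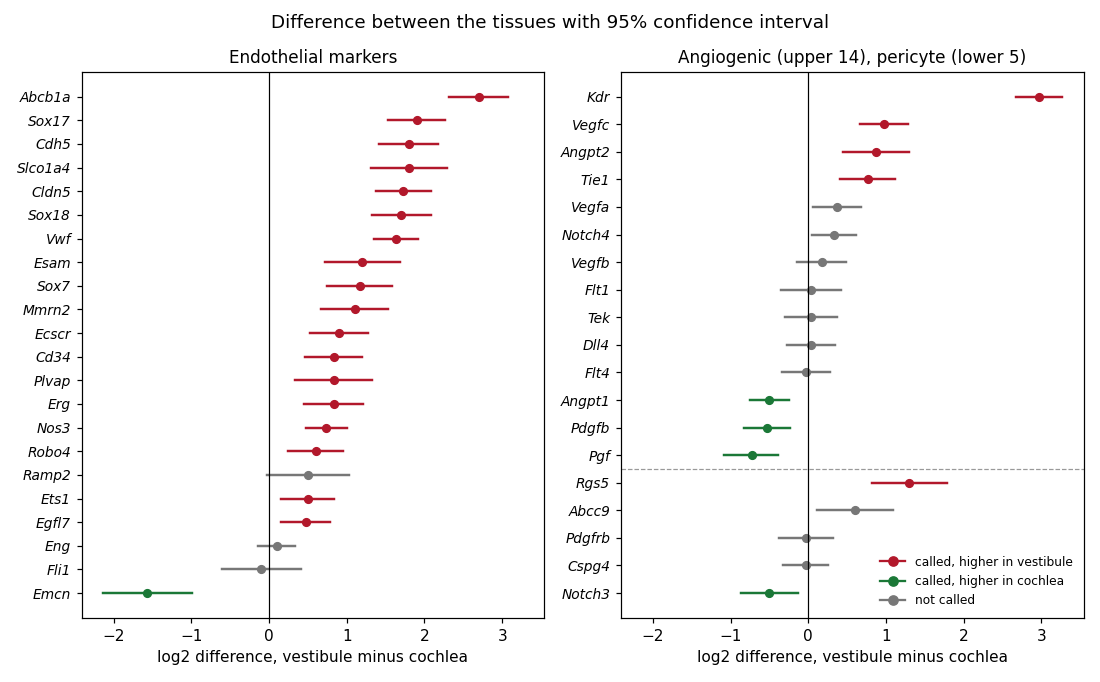
Log2 difference of vestibule minus cochlea with its 95% confidence interval for the 22 tested endothelial markers (left), the 14 angiogenic genes (right, above the dashed line) and the 5 pericyte markers (right, below it), coloured by call. The endothelial markers called higher in the vestibule form a slope from Abcb1a at 2.70 to Egfl7 at 0.47. Emcn is the one marker called on the cochlear side, and Eng, Ramp2 and Fli1 are uncalled. The angiogenic genes run from Kdr at 2.97 to Pgf at -0.73 with 7 genes uncalled.

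In all, 24 of the 42 members had more than 1 probe set, and 17 had more than 1 that passed the filter. Of the 66 tested probe sets of members, 35 were called higher in the vestibule against 5 in the cochlea, beside 12.0% and 7.37% of all tested probe sets. The 35 include a probe set of each of Sox7, Vwf, Abcb1a and Rgs5 that passed the filter through its vestibular level alone and so had to differ. They also include several of the same gene, such as 3 each of Egfl7 and Rgs5. No member had probe sets called in opposite directions. The brightest probe set of Flt4, Cspg4 and Abcc9 was not called while another of the same gene was called higher in the vestibule. Probe sets of a gene can read different transcripts or ends, so these genes are uncertain.

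**Figure D4:**
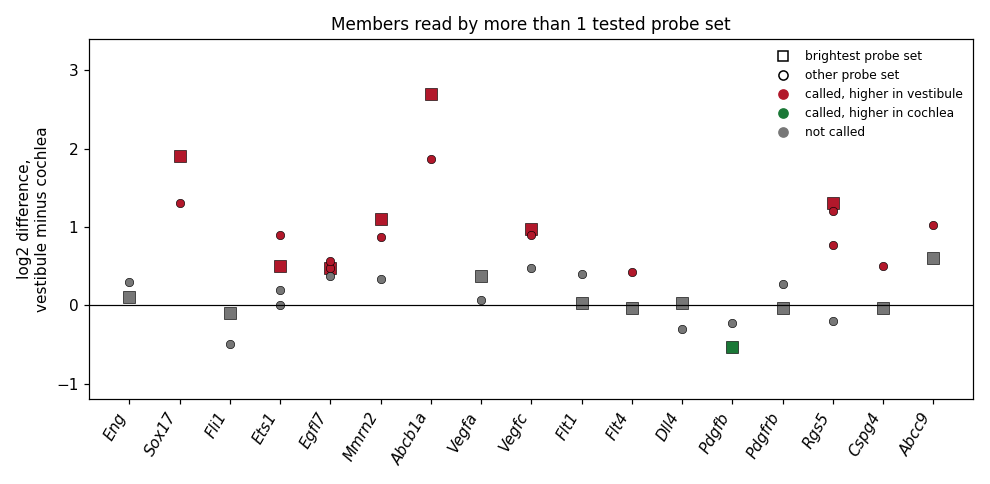
Log2 difference of vestibule minus cochlea for every tested probe set of the 17 members with more than 1, squares being the brightest and circles the others, coloured by call. The probe sets of Sox17, Abcb1a and Egfl7 lie on the same side of 0, whereas those of Flt4, Cspg4 and Rgs5 fall on both sides.

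Other genes of the vasculature, listed from textbook knowledge with earlier results of these data known, were counted in the same way. Their counts stand beside the 15.1% of all genes called higher in the vestibule and the 7.97% called higher in the cochlea. Of 34 tested endothelial genes outside the members 19 were called higher in the vestibule against 4 in the cochlea, with a median of 0.52. In both directions these calls include a gene that passed the filter through its higher tissue alone and so had to differ. The receptor gene Cd93 stood at 2.13, Podxl, which encodes the sialomucin podocalyxin, at 2.10, Ptprb, which encodes the phosphatase that restrains the Tek product, at 2.03 and Klf2, a factor induced by blood flow, at 1.73. Of 16 tested genes of barrier endothelium limma called 9 towards the vestibule and 0 towards the cochlea, where 1 had an unadjusted p under 0.05. They included the efflux pump gene Abcc4 at 2.30, the amino acid transporter genes Slc7a5 at 1.80 and Slc38a5 at 1.10, and the lactate transporter gene Slc16a1 at 1.17.

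Signalling genes of vessels were divided, as the member ligands were. Of 28 tested, 6 were called higher in the vestibule against 8 in the cochlea (all genes 15.1% and 7.97%), with a median of 0.00. The netrin receptor gene Unc5b stood at -1.60 and the Notch ligand gene Jag1, which sensory epithelium also expresses, at -1.40, while the apelin receptor gene Aplnr stood at 1.33 and the chemokine gene Cxcl12, the Notch target Heyl and the matrix gene Thbs1 each at 1.13. Among 17 genes of the hypoxia response, 6 were called towards the vestibule and 2 towards the cochlea, with a median of 0.07. Car9, a carbonic anhydrase gene, stood at -3.50 and Epas1, which encodes the hypoxia factor of endothelium, at 1.80. Egln3, an oxygen sensing hydroxylase gene, stood at 1.27 and Pfkfb3, which drives glycolysis, at 1.37.

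Mural cell genes outside the members were also divided, with 8 of 21 tested called higher in the vestibule against 7 in the cochlea and a median of 0.20. Zic1 stood at 4.17 and Foxf2, a factor of brain pericytes, at -2.10. Gucy1a1, a subunit of the nitric oxide receptor, stood at -1.50 and Rgs4, a relative of Rgs5, at 1.47. Of 7 tested genes of lymphatic endothelium 4 were called towards the vestibule and 1 towards the cochlea, with Foxc2 at 1.47, Gja1 at 2.33 and Nr2f2 at -1.27. Lyve1, a hyaluronan receptor of lymphatic vessels and of macrophages, stood at 1.07. Several genes of these lists, Zic1, Foxf2, Gja1 and Nr2f2 among them, are also active in mesenchyme or epithelium.

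Markers of other cells moved with the tissues as well, as the plot of gene lists by array shows. The mean log2 level of 14 macrophage markers was 7.07 to 7.41 on the cochlear arrays and 8.66 to 8.98 on the vestibular ones, and 13 of the 14 were called higher in the vestibule, with Mrc1 at 2.33 and Cd68 at 2.03. That of 10 mesenchymal markers was 10.81 to 11.20 against 11.36 to 11.55, with 6 called higher in the vestibule against 1 in the cochlea, Col1a1 at 1.87 and Lum at -0.97 among them. That of 9 neuronal markers was 7.71 to 8.28 against 6.32 to 6.58, and 8 were called higher in the cochlea, with Stmn2 at -3.90 and Nefh at -2.80. Nefh, with a vestibular mean of 4.43, passed the filter through its cochlear level alone and so had to differ. The 9 hair cell markers stood at 7.24 to 7.47 against 8.53 to 8.63, with Gfi1 at 3.10 and Otof at 1.53, and 6 of the 9 were called higher in the vestibule. The 5 platelet markers stood at 6.44 to 6.60 against 6.78 to 6.90. Pf4 was called at 1.70, while the other 3 tested did not pass, and the median difference of the 4 tested was 0.13. Of the 3 tested red blood cell markers 2 were called higher in the vestibule, with Alas2 at 0.87 and Slc4a1 at 0.43. Of 7 markers of otic epithelium 4 were called higher in the vestibule against 1 in the cochlea, of 6 Schwann cell markers 2 and 1, and of 7 melanocyte markers 5 and 1. Otog at 1.5 and Krt18 at 1.4 led the first of these lists, Pmp22 at 1.77 and Mbp at 1.33 the second, and Pmel at 2.27 and Mlana at 1.93 the third. Mlana, with a cochlear mean of 4.67, passed the filter through its vestibular level alone and so had to differ. The mean level of the 23 endothelial markers, 6.33 to 6.46 on cochlear and 7.23 to 7.46 on vestibular arrays, lay in the same direction as that of most of these lists. Their part in the differences of the members was not tested.

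**Figure D5:**
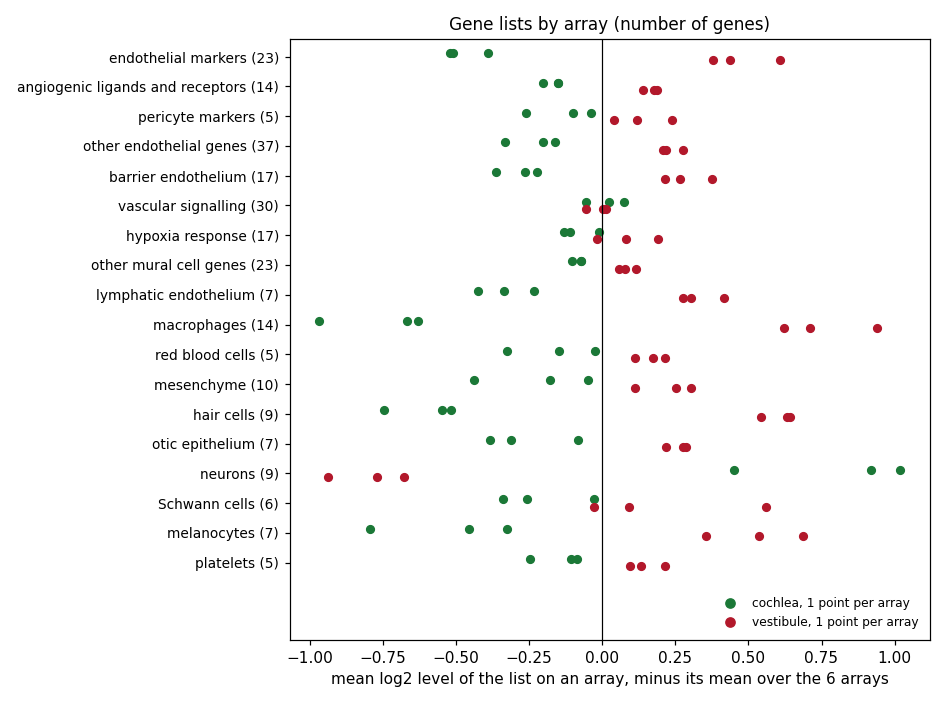
Mean log2 level of each gene list on each array, less its mean over the 6 arrays, for cochlea (green) and vestibule (red), with the number of genes read in brackets. The arrays of the tissues lie apart with the vestibule higher for most lists, the endothelial, angiogenic, pericyte, macrophage and hair cell lists among them. For the neuronal list they lie apart with the cochlea higher. They meet for the Schwann cell list and overlap for vascular signalling and hypoxia. The list means hide divided genes, since the median difference was 0.10 for the angiogenic and -0.03 for the pericyte genes, with calls in both directions.

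Over all probe sets the cochlear arrays correlated at 0.981 to 0.988 with each other, the vestibular arrays at 0.993 and arrays of different tissues at 0.945 to 0.961. Single members varied within a tissue, with SDs over the 3 cochlear arrays of 0.55 for Emcn, 0.51 for Ramp2 and 0.50 for Fli1. Vestibule replicate 1 held the highest vestibular level, ties included, in 24 of the 41 genes, and vestibule replicate 3 the lowest in 23. The endothelial markers fell in the same order, with vestibule replicate 3 lowest in 15 of 22. The source of this order was not tested.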

How the data were processed

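RNA of cochlear and vestibular sensory epithelia was amplified in 2 cycles and hybridised to 6 Affymetrix mouse genome arrays, 3 per tissue. The authors deposited log2 values made with RMA and quantile normalization, and their processing notes also name MAS5. Array medians were 5.6 to 5.7. The number of arrays limits the precision. Probe sets were named from the platform annotation, with symbols updated through the RefSeq table of GRCm38.p6. Of the probe sets 34945 had 1 gene, 932 several and 9160 none. The 29636 probe sets with the highest mean, 64 controls excluded, were tested with limma 3.58.1 in R 4.3.3 (lmFit and eBayes, two-sided, Benjamini-Hochberg adjustment over all of them). That number was chosen because the study kept as many by presence flags, which were not used here. The members and the gene lists were chosen with earlier results of these data known. All members may be named. Of each other vascular list up to 4 called genes with the largest difference were named (ties kept), and of each cell type list up to 2. The script was tested on simulated data. The alternatives covered filter, normalization, test, weights, replicate block, single arrays, thresholds and probe sets. The study's microRNA arrays and mass spectra were not analysed here.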

Additional observations from a re-analysis of the deposited data

How the results depend on the processing

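Of the 28 called members, 21 kept their call under each alternative in which they were tested (13 under 19, and 8 under 18, the stricter filter having removed them) and 7 lost it under at least 1 (Plvap, Robo4, Ets1, Egfl7, Angpt2, Pdgfb and Notch3). Of the 13 uncalled members 3 were called under some (Ramp2, Notch4 and Abcc9), and no called member changed sign. Under the stricter filter 11 endothelial markers were called higher in the vestibule, of 15 tested in place of 22, and none of those tested lost its call. That filter removed Sox18, with a mean of 6.15 over the 6 arrays. Plvap, Ecscr, Sox17 and Abcb1a, with cochlear means of 5.33 to 5.77, passed it through their vestibular levels and so had to differ. Pericyte markers called higher in the vestibule numbered 2, in place of 1, with the stricter filter, the replicate block, averaging over the probe sets of a gene, probe sets without the suffixes _x_at and _s_at, and an added random value of up to 0.05. Those called higher in the cochlea numbered 0 in place of 1 (Notch3) with a plain t-test, array weights, the replicate block, an adjusted p under 0.05 and probe sets without those suffixes, under which Notch3 was not tested. Leaving out single arrays gave 14 to 18 endothelial markers called higher in the vestibule, 1 to 2 pericyte markers called higher there and 0 to 1 in the cochlea. The cause was not tested. Same-numbered arrays of both tissues correlated in their deviations at 0.217, 0.153 and -0.000547, and differently numbered arrays at -0.224 to 0.029. These values do not settle whether the numbers are pairs. The labels state no pairing, so the main test took none, and the replicate block is the paired alternative. The replicate block gave 16 endothelial markers called higher in the vestibule and 4 angiogenic genes.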
